A study of Caenorhabditis elegans with 2 samples.

Results

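Isolated narrow CHD-3 peaks are the 870 entries of one deposited peak list that are under 1000 bp wide and have no other peak of any width closer than 10000 bp on either side. They are 17.6% of the 4940 peaks in the list and 19.5% of its 4466 narrow peaks (95% exact interval 18.3 to 20.7%). The share was 34.5% after peaks less than 500 bp apart were merged. It was 35.3% when only the 50% of peaks with the highest scores were kept and gaps were measured among them. In the full list, 21.2% of narrow peaks scored 104.81 to 186.1 were isolated, and 15.7% of those scored 186.21 to 3100. The other 3596 narrow peaks have at least 1 neighbour within 10000 bp and are the comparison used throughout. Width and spacing chose the members, so both are given as descriptions. The list comes from chromatin immunoprecipitation with sequencing (ChIP-seq) of CHD-3 in Caenorhabditis elegans. Whether replicates were pooled for it, and which control was used, is not stated. The samples at hand are 1 ChIP sample and 1 input DNA sample, each of them numbered replicate 2. Both are hermaphrodite adults of the strain fem-2(b245), genotype fem-2(b245)III, kept at 20 °C, so the fem-2 allele is shared by both samples and no strain without it is present. The stage label speaks of young adults that have a germline, but gravid animals were harvested according to the growth protocol. The antibody was an affinity-purified rabbit polyclonal to CHD-3, and whole worms were ground, so cell types are mixed.

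CHD-3 belongs to the Mi-2 family of chromatin remodellers. These ATPases slide nucleosomes and, in many animals, form the core of the NuRD complex together with histone deacetylases. In C. elegans, CHD-3 and its relative LET-418 are the Mi-2 proteins, known from work on vulval fate and germline chromatin. The gene fem-2 encodes a protein phosphatase that promotes male fates in sex determination. The autosomes of this worm have gene-dense centres with little recombination and arms that are richer in repeats and in heterochromatin marks.

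All positions are WormBase WS220, with bases counted from 1. The score of each peak is the value the authors deposited. Its scale is not named in the file. The number of reads behind each peak is unknown, and no input signal was analysed here. Everything below compares peaks within 1 list. Peaks of 1 list are not replicates, and no test of these differences was made. Exact binomial intervals of shares and order-statistic intervals of medians treat peaks as independent and cover counting error only. No gene is assigned to any peak, because the gene table at hand is of another assembly. No sequence is shown, because no WS220 genome was at hand.

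Isolated narrow peaks were somewhat narrower at the median than narrow peaks with neighbours, and the difference was larger toward the wide end. Their median width was 285 bp (95% interval 274 to 300 bp), against 311 bp (305 to 319 bp) for narrow peaks with neighbours. The middle 50% of isolated peaks ran from 218 to 412 bp, and that of peaks with neighbours from 229 to 467 bp. The difference of medians, -26 bp, is small beside either range, and it was -7 bp with narrow peaks limited to under 500 bp, -5 bp after merging peaks less than 500 bp apart and -55.5 bp in the upper 50% of scores. Widths of 600 bp or more were found in 70 of 870 isolated peaks, or 8.05% (exact interval 6.33 to 10.1%), against 525 of 3596 peaks with neighbours, or 14.6% (13.5 to 15.8%). At the other end, 18.2% of isolated peaks and 15.0% of peaks with neighbours were under 200 bp. Together the isolated peaks covered 294 kb, which was 11.3% of the length covered by the whole list.

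Isolated peaks also had slightly lower scores at the median, a difference of -6 that turned to 0.77 with a width limit of 500 bp. It was -0.89 after merging and -23.4 in the upper 50% of scores, and its interval, taken from that of the isolated median, ran from -10.4 to 0.53. The median score was 100.1 (95% interval 95.7 to 106.6), against 106.1 (103.5 to 109.1) for peaks with neighbours, and the quartiles were 67.5 and 164.8 for isolated peaks, against 70.4 and 194.3. Of the score limits examined, 200 set the groups furthest apart. A score of 200 or more was reached by 156 isolated peaks, 17.9% of them (exact interval 15.4 to 20.6%), against 859 peaks with neighbours, or 23.9% (22.5 to 25.3%). At both extremes the groups were close. Scores of 1000 or more were found in 15 of 870 isolated peaks, or 1.72% (0.968 to 2.83%), against 65 of 3596 peaks with neighbours, or 1.81% (1.40 to 2.30%). Scores under 60, near the lowest value of the list, 50, were found in 15.6% of isolated peaks and 15.4% of peaks with neighbours. The value 3100, at which 111 peaks of the list are tied, was reached by 0 of 870 isolated peaks (3 counts in 870 would be 0.345%) and by 5 of the 3596 peaks with neighbours.

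**Figure D1:**
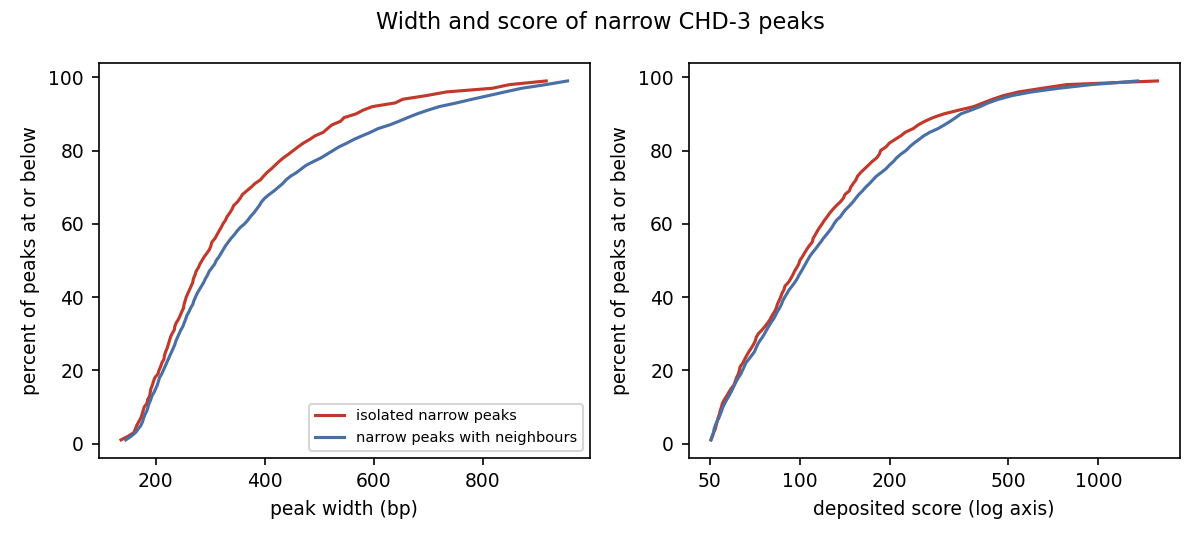
Cumulative percent of peaks (y axis) by width in bp (left) and by deposited score on a log axis (right), drawn from the 1st to the 99th percentile. Isolated narrow peaks (red) lie to the left of narrow peaks with neighbours (blue) over most of the width range, with medians of 285 and 311 bp. The score curves lie close at the low end and cross at the high end. For isolated peaks and peaks with neighbours, the 98th percentiles of score are 783.0 and 946.4 and the 99th 1577.3 and 1353.8.

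Score and width rose together among isolated peaks (Spearman's rho 0.83 across 870 peaks, against 0.85 across the 3596 peaks with neighbours, given as a description). The 2 measures come from the same peak call. Within classes of width the isolated peaks were mostly not the group with the lower median. In 5 of 6 classes of width their median score was the higher one, and the exception was 300 to 399 bp, with 113.5 for 172 isolated peaks and 114.4 for 703 peaks with neighbours. In the narrowest class, under 200 bp, the medians were 57.5 for isolated peaks and 56.8 for peaks with neighbours. In the class of 250 to 299 bp they were 97.4 for isolated peaks and 89.6 for peaks with neighbours. In the widest, 600 to 999 bp, they were 358.9 for 70 isolated peaks and 336.1 for 525 peaks with neighbours. The quartile ranges of the groups overlapped in each class, and in the widest they were 226.4 to 548.7 for isolated peaks and 257.0 to 473.6 for peaks with neighbours.

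**Figure D2:**
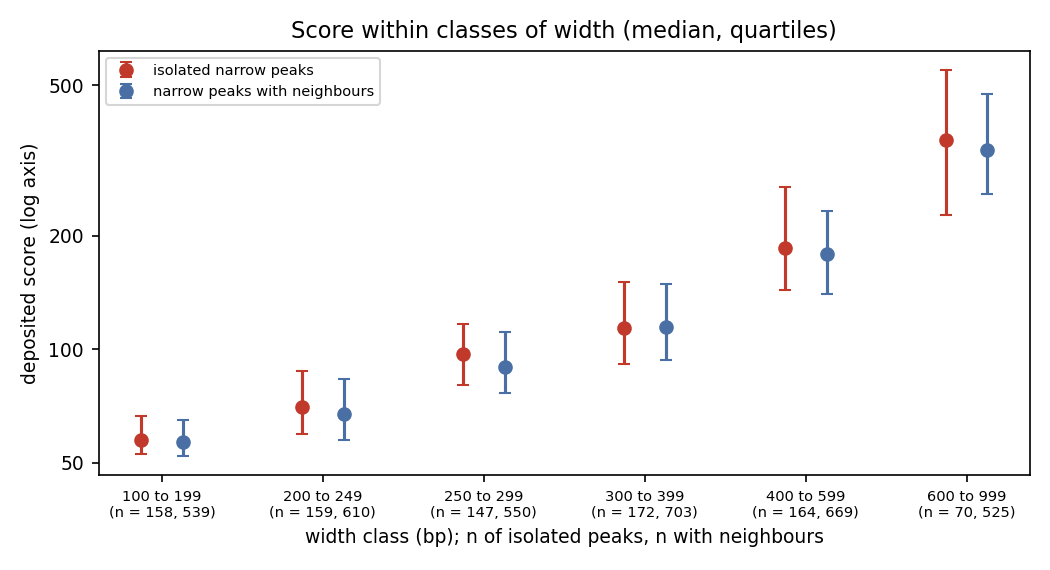
Deposited score (log axis) in 6 classes of width in bp, with the median as a point and the quartiles as bars, for isolated narrow peaks (red) and narrow peaks with neighbours (blue), and the number of peaks under each class. The medians climb with width in both groups, from 57.5 to 358.9 for isolated peaks, and the bars of the groups overlap in every class.

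Each isolated peak was also set beside the peaks with neighbours whose width lay within 10% of its own, of which there were at least 4 (median 483). The isolated peak scored above the median of that reference in 472 of 870 cases, or 54.3% (exact interval 50.9 to 57.6%). The median excess was 2.95 score units, with quartiles of -9.39 and 30.3. A place above 95% of the reference was held by 50 isolated peaks, or 5.75% (4.30 to 7.51%), and 29 isolated peaks had fewer than 5% of the reference below them. The same shares were not computed for the peaks with neighbours themselves. Without that baseline, no difference between the groups is read from these values.

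The distance to the nearest peak was 20.9 kb at the median, with quartiles of 14.6 and 33.7 kb. In 866 of the 870 cases there was a peak on both sides, and the stretch holding no other peak, from the end of the previous peak to the start of the next, had a median of 76.7 kb. Among the members, width and score varied little with that distance. The 415 members with a nearest gap of 10 to 20 kb had medians of 284 bp in width and 100.8 in score. For the 373 members at 20 to 50 kb these were 285 bp and 98.5, and for the 82 members at 50 kb or more 282 bp and 109.2. Across the members the gap had a rho of -0.013 with width and 0.00082 with score.

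Below 10000 bp the pattern was uneven. The 1924 narrow peaks less than 500 bp from the next had medians of 329 bp in width and 114.1 in score. The lowest medians of all distance classes belonged to the 468 peaks at 5000 bp or more but less than 10000 bp, with 272 bp and 88.8. Those peaks, just short of the gap used here, were narrower and scored lower at the median than the isolated ones. Grouped by side, the 870 isolated peaks had a median width of 285 bp, the 2108 narrow peaks with a gap of 10000 bp on 1 side only had 304 bp, and the 1488 with a closer peak on each side had 325.5 bp.

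**Figure D3:**
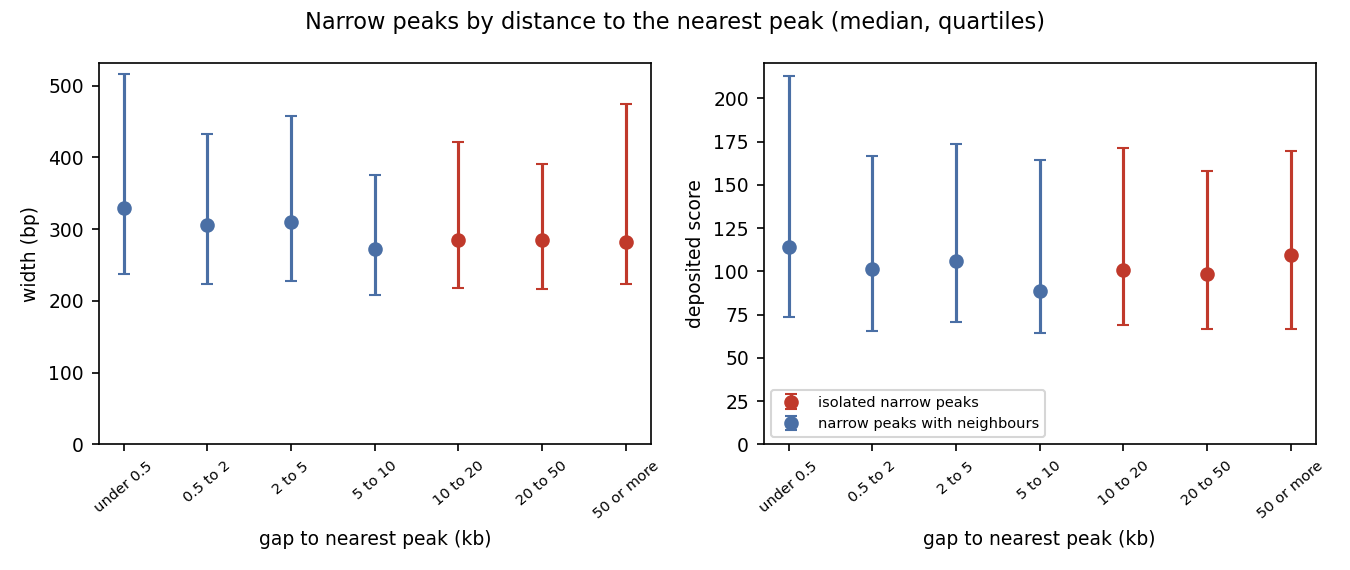
Median (points) and quartiles (bars) of width in bp (left) and deposited score (right) of narrow peaks by the gap to the nearest peak in kb. Isolated narrow peaks are the 3 red classes from 10 kb upward, with median widths of 284, 285 and 282 bp, and the lowest medians are at 5 to 10 kb, with 272 bp and a score of 88.8.

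Peaks on either side of the thresholds are given here without a test. The members with the smallest gaps were 13729463 to 13729667 of I (gap 10029 bp, 205 bp wide, score 50.02), 17780888 to 17781051 of V (10072 bp, 164 bp, 78.2) and 14135917 to 14136662 of V (10110 bp, 746 bp, 319.3). Just outside stood a pair on II, 13441630 to 13441974 and 13451954 to 13452178, 9980 bp from each other and scored 95.4 and 92.6, and 8597466 to 8597696 of IV (gap 9955 bp, score 53.3). At the width limit, the widest members were 2586823 to 2587820 of I and 3089572 to 3090569 of X, both of 998 bp and scored 559.3 and 476.0, and 195626 to 196602 of IV (977 bp, score 683.8). The first peaks left out for width were 13223855 to 13224864 of IV (1010 bp, score 388.8), 3796449 to 3797459 of II (1011 bp, 555.1) and 12368772 to 12369784 of III (1013 bp, 489.4). In all, 76 of the 474 peaks of 1000 bp or more met the gap criterion, or 16.0% (exact interval 12.8 to 19.7%), against 19.5% of narrow peaks. Their median score was 1370.8.

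Broad peaks were about as frequent next to the members as next to other narrow peaks. The nearest peak was 1000 bp or wider for 78 of 870 isolated peaks, or 8.97% (exact interval 7.15 to 11.1%), and for 302 of 3596 peaks with neighbours, or 8.40% (7.51 to 9.35%). Isolated peaks whose nearest peak was broad had medians of 270.5 bp in width and 89.5 in score, whereas peaks with neighbours whose nearest peak was broad had 409.5 bp and 142.3. Where the nearest peak was narrow the medians were 285.5 bp for 792 isolated peaks and 305 bp for 3294 peaks with neighbours. The nearest peak had the higher score in 55.7% of isolated peaks and in 54.2% of peaks with neighbours.

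Some members lay next to other members. For 359 of them, or 41.3%, the nearest peak was itself a member. For 580 of the 870 at least 1 adjacent peak was a member, and 164 had a member on each side. By the rule a member's adjacent peak must itself face a gap of at least 10000 bp. Of the 4162 peak sides in the list that face such a gap, 41.7% belonged to members, and of the 1736 adjacent peaks seen from members 42.9% were members, so nothing is read from these shares. The 870 members formed 498 unbroken runs, of which 290 were single members, 117 were pairs and 3 held 7 members.

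The chromosomes carried isolated peaks at close densities. Chromosome III had the most per Mb, 9.65, and V the fewest, 7.61, a ratio of 1.27. Narrow peaks with neighbours ran from 29.3 per Mb on V to 47.2 on IV, a ratio of 1.61. As a share of narrow peaks, isolation was most frequent on II, with 132 of 595 or 22.2% (exact interval 18.9 to 25.7%). It was 21.5% of 688 on X (18.5 to 24.8%), 20.6% of 770 on V (17.8 to 23.7%), 19.1% of 729 on I (16.3 to 22.1%) and 19.0% of 700 on III (16.2 to 22.1%). It was least frequent on IV, with 159 of 984 or 16.2% (13.9 to 18.6%). The interval of II lies just above that of IV, and the other 4 intervals overlap both. The density of all peaks was 61.3 per Mb on IV, 56.1 on III, 52.9 on I, 44.2 on II, 43.5 on X and 41.04 on V. The rule depends on spacing, so the counts per Mb of both groups and the isolated shares all depend on peak density by construction. That part was not tested, and no even spread of the members is read from the close counts per Mb. The highest share moved to X with gaps of 5000 bp (32.6%) and 20000 bp (13.5%). It moved to I when only the upper 50% of scores was kept (37.96%).

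**Figure D4:**
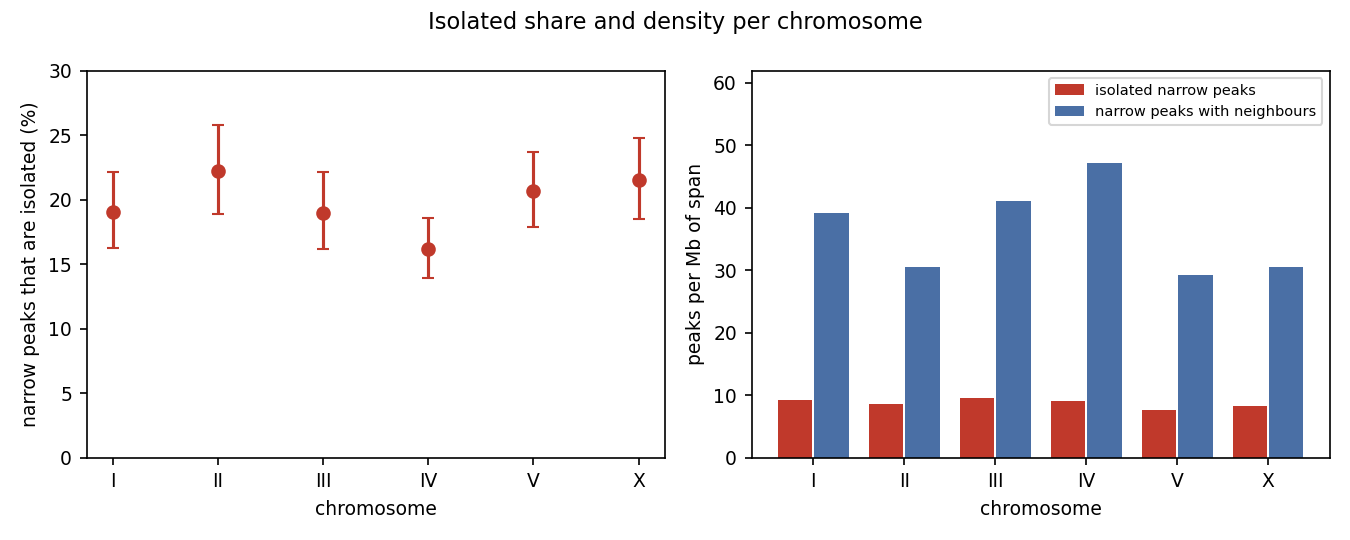
Share of narrow peaks that are isolated, in percent with 95% exact intervals (left), and peaks per Mb of chromosome span (right) for isolated narrow peaks (red) and narrow peaks with neighbours (blue). The isolated share is 22.2% on II and 16.2% on IV, and isolated peaks per Mb lie between 7.61 and 9.65. Both measures depend on peak density through the rule.

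Read as shares of the 870 members, IV and V held 159 each or 18.3%, X held 148 or 17.0%, I 139 or 16.0%, III 133 or 15.3% and II 132 or 15.2%. These values lie near the shares of chromosome span, which were 17.5% for IV, 20.9% for V, 17.7% for X, 15.1% for I, 13.8% for III and 15.2% for II. The members' shares also depend on peak density through the rule, so no even spread is read from them. Chromosome IV was the one with the widest gap to peaks with neighbours, of which it held 22.9%. The median width of members was below that of peaks with neighbours on all 6 chromosomes. The difference was smallest on I, -4.5 bp (294 bp for members, 298.5 bp for peaks with neighbours), and largest on V, -45 bp (273 bp for members, 318 bp for peaks with neighbours). The median score was lower on the 5 autosomes, with differences from -9.37 on V to -4.96 on III. On X it was 107.7 for members, against 104.5 for peaks with neighbours. The order-statistic intervals of the members' median scores overlapped among all 6 chromosomes.

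The place of isolated peaks in arms and centres was near that of other narrow peaks when the autosomes were pooled, with a difference that changed in size and sign with the settings, and lay furthest from it on IV and V. The centre was taken as the central 50% of each span, from base 1 to the last base of the last peak. On the autosomes 332 of 722 isolated peaks, or 46.0% (exact interval 42.3 to 49.7%), lay in the centre, against 1428 of 3056 peaks with neighbours, or 46.7% (44.9 to 48.5%). The difference of -0.74 points turned to 4.08 with a gap of 20000 bp, to 0.54 after merging and to 0.31 with the middle one of 3 equal parts as the centre. It was larger in the same direction with a gap of 5000 bp (-3.31), without chromosome IV (-4.19) and in the upper 50% of scores (-4.82). On X the shares were 47.3% of 148 (39.04 to 55.7%) for isolated peaks and 45.9% of 540 (41.7 to 50.2%) for peaks with neighbours. On IV the central share was 49.7% for isolated peaks (41.7 to 57.7%) and 40.2% for peaks with neighbours (36.9 to 43.7%), and on V it was 46.5% for isolated peaks (38.6 to 54.6%) and 58.4% for peaks with neighbours (54.4 to 62.4%). The difference, isolated minus neighboured, was 9.44 points on IV and -11.9 on V, so the signs were opposite. The intervals of the groups overlapped on both, on V only between 54.4 and 54.6%. Overlap of separate intervals does not place a difference within counting error, and no test of it was made. On I the difference was -6.24 points, on II 2.70 and on III -0.18, with overlapping intervals.

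Within the members, those of the autosome centres were the wider ones. Their median was 313 bp for 332 peaks in the centre and 260 bp for 390 in the arms, a difference of 53 bp, and the median scores were 105.4 in the centre and 94.7 in the arms. For peaks with neighbours the same difference in width was 43.5 bp. The difference of members was 76 bp on III, 65 on V, 59 on II and 40.5 on IV, but -17 bp on I, where members of the centre had a median of 287 bp and those of the arms 304 bp. On X it was -13.5 bp. For peaks with neighbours the difference in width was 46 bp on I and 11 bp on X. The median scores of members turned on the same chromosomes, with 87.8 in the centre and 114.4 in the arms of I, and 104.1 in the centre and 110.1 in the arms of X. For peaks with neighbours the difference in score, centre minus arms, was 5.9 on I, -1.27 on X and -14.0 on II. The quartile ranges of centre (235 to 452 bp) and arms (205 to 364 bp) on the autosomes overlapped widely. Along the autosomes the isolated share of narrow peaks was lowest at the ends, with overlapping intervals. With each span cut into 10 equal stretches it was 16.2% in the first and 16.7% in the last. It lay between 18.5 and 22.03% in the other 8. Isolated peaks were not fewer at the ends, with 77 and 76 against 60 to 89 in the other 8. Peaks with neighbours were more numerous there, with 398 and 378 against 243 to 315.

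**Figure D5:**
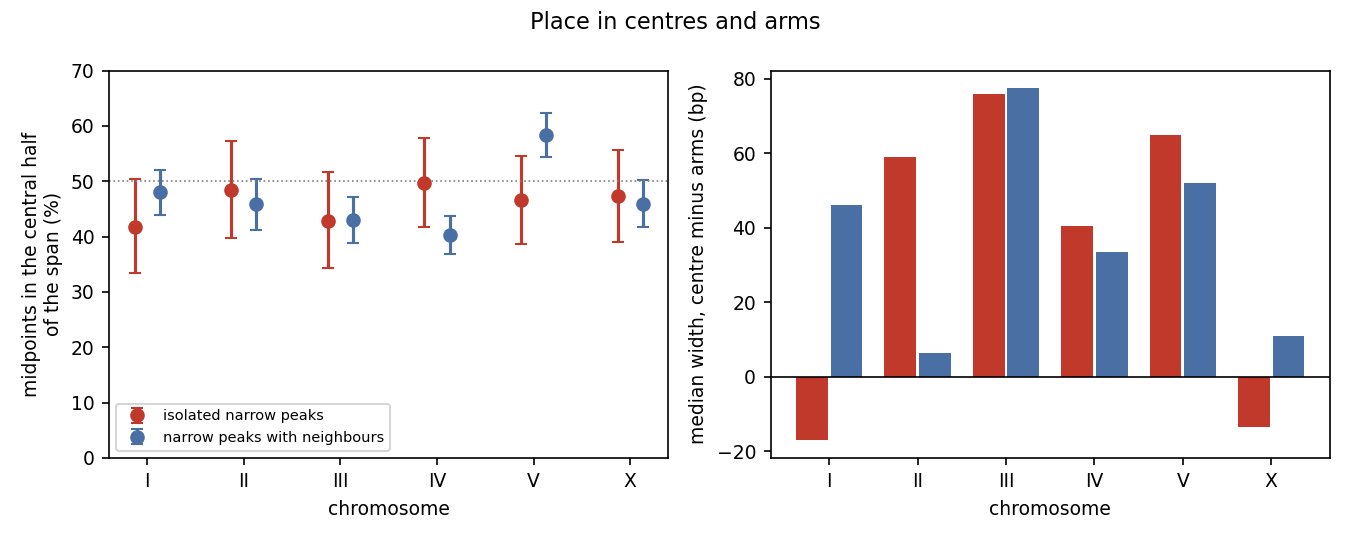
Left, percent of midpoints in the central 50% of each chromosome span with 95% exact intervals, where the dotted line marks 50%; right, median width in the centre minus that in the arms, in bp, for isolated narrow peaks (red) and narrow peaks with neighbours (blue). The groups lie furthest apart on IV (49.7 and 40.2%) and, the other way, on V (46.5 and 58.4%), and the width difference of isolated peaks is below 0 on I and X.

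A few isolated peaks had scores far from the rest. The highest was 15895694 to 15896286 of IV, 593 bp wide and scored 2407, with no peak for 36.2 kb to its left and 75.5 kb to its right. Among the 275 peaks with neighbours within 10% of its width 3 scored as high, and their median was 233.0. The next were 12637918 to 12638626 of IV (709 bp, score 2221), 330147 to 330866 of X (720 bp, 2057), 3007150 to 3008067 of X (918 bp, 1975) and 9404745 to 9405370 of II (626 bp, 1743). These peaks were all wider than 90% of the members, whose 90th percentile of width was 567.1 bp. On V the highest was 2890567 to 2891295 (729 bp, score 1662), and the next peak to its right, 57.9 kb away, was the member 2949188 to 2950014 with a score of 1646. The highest on I was 11365746 to 11366637 (892 bp, score 1570). Of the 15 members scored 1000 or more, 5 lay on IV, 3 each on V and X, 2 each on I and II and 0 on III.

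All 6 chromosomes begin inside a peak with a high score, and 3 of these peaks are members. The peaks beginning at base 1 of II, III and IV met the rule with a free side toward the chromosome end. The peak of III was 224 bp wide with a score of 910.0, the highest member of that chromosome, and none of the 556 peaks with neighbours of like width scored as high. The peak of IV was 254 bp wide with a score of 1108 and was likewise above all 611 of its like-width peaks. The peak of II was 455 bp wide with a score of 1598, and 3 of 344 scored as high. The peaks at base 1 of I, V and X were no members, with the next peak 223 bp away on I, 7935 bp on V and 5343 bp on X. Their scores were also high, 3100 on I (536 bp wide), 1417 on V (376 bp) and 2457 on X (372 bp), so a high score at a chromosome start was not limited to the isolated ones. The only member that was the last peak of its chromosome, 20881658 to 20881846 of V, had a score of 60.9. Whether sequence ends shape these calls was not tested.

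The most remote members had scores from 52.2 to 197.7. The peak 3874634 to 3874902 of IV had no other peak within 128.2 kb and measured 269 bp with a score of 78.4. On X the peak 7822838 to 7823345 had none within 128.0 kb (508 bp, score 197.7), 12966916 to 12967076 none within 89.7 kb (161 bp, score 52.2) and 3262227 to 3262621 none within 84.98 kb (395 bp, score 153.5). On IV the peak 541378 to 541586 had none within 86.5 kb (209 bp, score 58.0). The narrowest members were 9235278 to 9235382 of X (105 bp, score 60.2), 4379718 to 4379832 of V (115 bp, 63.4) and 11296070 to 11296185 of II (116 bp, 50.9).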

How the data were processed

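The peak list of the ChIP sample was analysed. Per the file headers and source column, MACS called the peaks on WormBase WS220, and per the submitters' processing notes BWA and build ce10 were used. Versions, calling threshold, control and pooling are not stated in those sources. Column 6 holds a score deposited by the authors, with no named scale; it was used to rank and describe peaks. The gap is the first base of the next peak minus the last base of the one before. Chromosome ends counted as free sides, and a span ended with the last peak. The search for isolated peaks was tested on simulated data and returned the planted ones. Shares have Clopper-Pearson intervals (scipy 1.17.1, pandas 2.3.3, Python 3.11.15). The members, lists and comparisons were chosen with earlier results of these data known. The regions named are, among isolated narrow peaks, the 5 highest scores, the 5 largest gaps, the 3 widest, the 3 narrowest, the highest of each chromosome and the 3 nearest each side of both thresholds. The members scored 1000 or more, those at chromosome ends, the 10% band of like widths and the gap classes above 10 kb were chosen after their values were seen. Alternatives were gaps of 5000 and 20000 bp, a width limit of 500 bp, the upper 50% of scores, merging under 500 bp, leaving out the densest chromosome, leaving out first and last peaks, and a centre made of the middle one of 3 equal parts. Depth is unknown.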

Additional observations from a re-analysis of the deposited data

How the results depend on the processing

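No paired analysis was made, because only the peak list of the ChIP sample was used. The input sample of the same replicate number was left out. Of 36 recomputed values 24 were counted as unchanged, 8 as moved and 4 as changed in sign. Differences were judged by the interval of the reported one, and changes of sign were counted apart even inside it. Counts of members from 705 to 986 were also taken as unchanged beside 870, though their shares of narrow peaks reached 35.3%. For the isolated share per chromosome, only the spread between the highest and the lowest chromosome was judged. Each alternative was counted as unchanged there, though the highest chromosome became X or I in some. The interval of that spread ran from -2.12 to 12.0 points in the upper 50% of scores and from -1.33 to 7.74 without chromosome IV. With a gap of 5000 bp there were 1338 isolated peaks and with 20000 bp 455. The isolated share of narrow peaks, 19.5% as reported, was 34.5% after merging. It was 35.3% with only the upper 50% of scores kept and gaps measured among them. The difference in median width, isolated minus neighboured, was -26 bp as reported, -39 bp with a gap of 5000 bp, -7 bp with a width limit of 500 bp, -55.5 bp in the upper 50% of scores and -5 bp after merging. The difference in median score was -6 as reported, -10.7 with a gap of 5000 bp, -23.4 in the upper 50% of scores and 0.77 with a width limit of 500 bp. The central share on autosomes differed by -0.74 points as reported and by 4.08 with a gap of 20000 bp, 0.54 after merging and 0.31 with the middle one of 3 equal parts as the centre. The cause of these changes was not tested. Chromosome IV had the lowest isolated share in each alternative that kept it.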

Other observations

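These values were picked after they were seen. The longest runs of consecutive isolated narrow peaks held 7 members each. On II they ran from 9302002 to 9501421, with scores of 54.5 to 1743, and from 12031365 to 12286583, with scores of 56.6 to 203.7. On X a run from 5518482 to 5841425 spread its 7 members over 322.9 kb, with widths of 155 to 911 bp. With the span of X cut into 10 equal stretches, the isolated share of narrow peaks was highest in stretch 6, with 20 of 46 or 43.5% (exact interval 28.9 to 58.9%), and lowest in stretch 7, with 10 of 77 or 12.99% (6.41 to 22.6%). With all narrow peaks ordered by score, isolation was found in 175 of the top 1117, or 15.7% (13.6 to 17.9%), and in 233 of the bottom 1117, or 20.9% (18.5 to 23.4%).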
